A study of Mus musculus with 20 samples.

Results

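The striatal projection neuron genes described here are *Drd1*, *Drd2*, *Adora2a*, *Ppp1r1b*, *Penk*, *Pdyn*, *Tac1*, *Rgs9* and *Pde10a*. They were taken by gene symbol from the deposited expression table, and all 9 were found among its 17211 genes, so no member was lost to a filter on low values. The table holds 10 brain RNA samples of C57BL/6 mice, the controls, and 10 of *Winnie* mice, each taken here as 1 mouse. Both groups came from 1 breeding colony and were aged 14 weeks, and each has 5 samples labelled female and 5 labelled male. *Winnie* mice carry a missense mutation in *Muc2*, which encodes a mucin of gut goblet cells, and develop colitis without any treatment. The mutation is present in every cell, no agent was given to either group, and *Muc2* in the brain was not analysed here. The question put to these genes was how far they vary from brain to brain, whether they vary together, and whether they differ between *Winnie* and C57BL/6 brains.

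The authors deposited CPM, the reads of a gene scaled to a common total over all listed genes. Every value was a whole number of reads, with 16540303 to 23923769 reads per brain. A value of 3 reads, taken as the floor, corresponds to at most 0.181 CPM, and the 9 genes had between 93 and 6807 reads in every brain. Neuronal and glial genes were abundant, with *Snap25* at 1919 to 2480 CPM. The cerebellar genes *Gabra6* and *Pcp2* had 0 reads in at least 1 brain and at most 7.44 and 5.02 CPM. RNA of *Xist* and *Ddx3y* went against the labelled sex in 9 of 10 C57BL/6 brains and in 0 of 10 *Winnie* brains, so sex is not used here to form groups. The sample descriptions end in a number after the letter S, from 1 to 10 in C57BL/6 and from 11 to 20 in *Winnie* samples. It is called the library number here, although the labels do not say what it orders. Any effect that follows this number and genotype therefore cannot be told apart.

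The striatum is the main entry station of the basal ganglia, and most of its neurons are GABAergic projection neurons that receive dopamine from the midbrain and glutamate from cortex and thalamus. They fall into a pair of classes. Neurons of the direct pathway carry the dopamine D1 receptor (*Drd1*), which raises cyclic AMP, and make the peptides substance P and neurokinin A (*Tac1*) and dynorphins (*Pdyn*). Neurons of the indirect pathway carry the D2 receptor (*Drd2*), which lowers cyclic AMP, an adenosine receptor (*Adora2a*), which raises it, and make enkephalins (*Penk*). Both classes share *Ppp1r1b*, which encodes DARPP-32, a protein that inhibits protein phosphatase 1 once protein kinase A has phosphorylated it. They also share *Rgs9*, whose protein shortens signalling through inhibitory G proteins, and *Pde10a*, a phosphodiesterase that breaks down cyclic AMP and cyclic GMP. None of the 9 genes is exclusive to the striatum, since *Tac1*, *Penk* and *Pdyn*, for example, are also made in other brain regions.

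*Drd1* lies on chromosome 13 (54051183 to 54055705, minus strand, GRCm38, GENCODE M21), *Drd2* on chromosome 9 (49340627 to 49408177, plus), *Adora2a* on chromosome 10 (75316877 to 75334784, plus) and *Penk* on chromosome 4 (4133531 to 4138819, minus). *Pdyn* lies on chromosome 2 (129686565 to 129699844, minus), *Tac1* on chromosome 6 (7554879 to 7565834, plus) and *Pde10a* on chromosome 17 (8525372 to 8986648, plus). *Ppp1r1b* (98348404 to 98357796, plus) and *Rgs9* (109225355 to 109298129, minus) share chromosome 11 without being neighbours. *Penk* overlaps the annotated gene A830012C17Rik, *Ppp1r1b* overlaps 1700003D09Rik and *Pde10a* overlaps 3 further annotations. Whether the counting used strand is not given in the sources used here, so reads of these overlaps could be shared.

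The 3 peptide genes encode precursors that are cut into several active peptides, and short coding windows are shown to make plain what their transcripts carry. Each window is read from the GENCODE M21 transcript 5′ to 3′ and lies within a coding exon. Capitals mark the 5 codons of the peptide core, which in *Penk* and *Pdyn* is the enkephalin sequence and in *Tac1* the shared carboxyl end of the tachykinins. The enkephalin core occurred 7 times in the *Penk* coding sequence, once as Leu-enkephalin, and 3 times in that of *Pdyn*, each as Leu-enkephalin. All 10 copies follow a pair of codons for basic residues, where precursor convertases cut. The Leu-enkephalin core of *Penk* and the second core of *Pdyn* have the same 15 bases. *Tac1* held 2 tachykinin cores.

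Penk Met-enkephalin core (chr4:4134328-4134354, minus strand): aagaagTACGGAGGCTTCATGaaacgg
Penk Leu-enkephalin core (chr4:4133935-4133961, minus strand): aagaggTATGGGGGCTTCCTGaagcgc
Pdyn Leu-enkephalin core, second copy (chr2:129688124-129688150, minus strand): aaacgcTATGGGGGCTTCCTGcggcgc
Tac1 substance P core (chr6:7556744-7556773, plus strand): cagcagTTCTTTGGATTAATGggcaagcgg
Tac1 neurokinin A core (chr6:7559110-7559139, plus strand): gattccTTTGTTGGACTAATGggcaaaaga

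RefSeq promoter windows (GRCm38.p6) were found for 6 of the 9 genes, and those of the receptor pair are shown because *Drd1* and *Drd2* mark separate neurons and yet moved together here. *Adora2a*, *Ppp1r1b* and *Penk* had no entry. The windows hold the bases before the start site that lie outside the annotated exons of the gene, with capitals for GGGCGG on either strand, a GC box. *Drd2* had 2 such matches and the *Drd1* window shown had 0, with 1 before a second RefSeq start of *Drd1*, while 32.7% of all 32851 promoter windows of 250 bases held at least 1. TATAAA was in neither window and in 12.4% of all windows, searched on both strands. CGTCA, the core of a cyclic AMP response element, was found in the *Tac1* window of the 6 genes, at 2 places, and in 17.8% of all windows. The motifs were searched in the full 250 bases, and a match is a run of letters only.

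Drd1 upstream (chr13:54055706-54055908, minus strand): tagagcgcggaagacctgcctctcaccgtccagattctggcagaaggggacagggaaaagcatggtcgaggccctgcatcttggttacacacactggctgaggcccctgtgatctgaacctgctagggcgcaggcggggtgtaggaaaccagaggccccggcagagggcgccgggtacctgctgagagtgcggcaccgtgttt
Drd2 upstream (chr9:49340153-49340402, plus strand): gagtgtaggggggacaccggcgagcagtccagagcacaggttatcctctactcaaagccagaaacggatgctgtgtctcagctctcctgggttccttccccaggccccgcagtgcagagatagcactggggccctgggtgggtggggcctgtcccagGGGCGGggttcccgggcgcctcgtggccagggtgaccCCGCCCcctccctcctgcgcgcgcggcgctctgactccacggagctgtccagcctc

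All 9 genes varied widely from brain to brain, and they did so in both genotypes. *Adora2a* showed the widest range, from 4.68 CPM in *Winnie* replicate 8 to 46.1 CPM in C57BL/6 replicate 5, a 9.86-fold spread. *Tac1* and *Pdyn* showed the narrowest, with 2.504-fold and 2.415-fold between the lowest and highest brains. The lowest value of 7 of the 9 genes was in *Winnie* replicate 8, and the highest was in C57BL/6 replicate 5 or *Winnie* replicate 5 for every one of them. In bulk tissue, fewer cells of a type in the sample and less RNA per cell cannot be told apart.

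Among the genes of the direct pathway, *Drd1* ranged in C57BL/6 brains from 11.96 to 43.5 CPM with a median of 16.1, and in *Winnie* brains from 10.2 to 39.3 CPM with a median of 17.5. C57BL/6 replicates 3, 4, 5 and 7 held the 4 highest C57BL/6 values and *Winnie* replicates 1, 4, 5 and 9 the 4 highest *Winnie* values, and the genotypes overlapped over nearly the whole range. *Tac1* ranged from 13.7 to 30.9 CPM in C57BL/6 (median 18.1) and from 12.3 to 25.7 CPM in *Winnie* brains (median 18.9). *Pdyn* ranged from 14.4 to 32.2 CPM in C57BL/6 (median 19.2) and from 13.3 to 29.8 CPM in *Winnie* brains (median 21.6). The same 8 brains were the highest for *Pdyn*. For both peptide genes 1 of the 10 *Winnie* brains, replicate 8, fell outside the C57BL/6 range.

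Among the genes of the indirect pathway, *Drd2* ranged from 12.4 to 45.2 CPM in C57BL/6 (median 19.3) and from 9.20 to 49.3 CPM in *Winnie* brains (median 18.3). *Adora2a* ranged from 5.74 to 46.1 CPM in C57BL/6 (median 13.2) and from 4.68 to 38.5 CPM in *Winnie* brains (median 14.01). *Penk* ranged from 66.0 to 236.6 CPM in C57BL/6 (median 107.9) and from 63.2 to 249.2 CPM in *Winnie* brains (median 104.3). The medians of the genotypes were close for all 3 genes, while brains of 1 genotype differed by 3.59-fold or more.

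Of the signalling genes shared by both classes, *Ppp1r1b* ranged from 100.4 to 327.2 CPM in C57BL/6 (median 152.2) and from 98.1 to 347.9 CPM in *Winnie* brains (median 142.5). *Rgs9* ranged from 18.7 to 67.3 CPM in C57BL/6 (median 28.8) and from 17.1 to 67.6 CPM in *Winnie* brains (median 26.6). *Pde10a* ranged from 95.6 to 269.9 CPM in C57BL/6 (median 122.5) and from 89.7 to 266.3 CPM in *Winnie* brains (median 124.0). Most brains of each genotype lay near the lower end of these ranges and 4 of each lay well above.

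**Figure D1:**
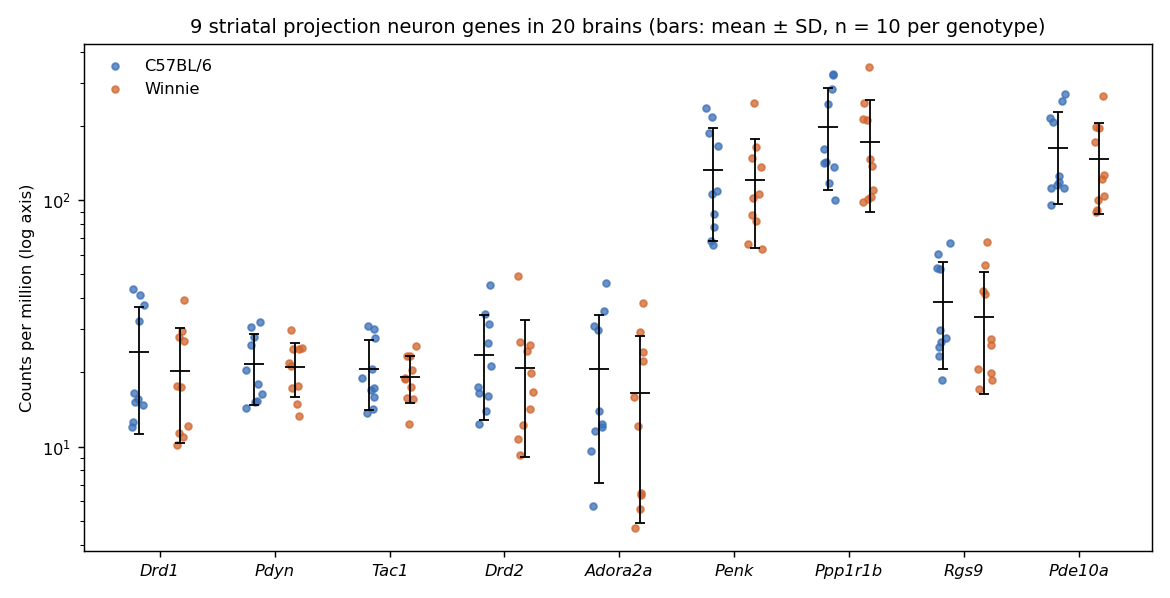
CPM (log axis) of the 9 genes in each of 20 brains, with C57BL/6 in blue and Winnie in orange; bars are the mean ± SD of 10 brains. The genotypes overlapped for every gene, with Adora2a spanning 4.68 to 46.1 CPM and Tac1 only 12.3 to 30.9 CPM.

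Set against length, the median level was highest for *Penk*, at 65.1 CPM per kilobase of annotated exon, followed by *Ppp1r1b* at 49.5. *Pde10a* (9.64), *Drd2* (7.33), *Pdyn* (7.24), *Tac1* (5.56), *Drd1* (4.70), *Rgs9* (4.32) and *Adora2a* (4.30) followed on the same scale. *Ppp1r1b* lay above *Pde10a* in every brain, at 33.5 or more against 21.003 or less. The ranges of the other neighbours in this order overlapped over brains. Within single brains, however, *Penk* lay above *Ppp1r1b*, *Pde10a* above *Drd2* and *Pdyn* above *Tac1* in 20 of 20. *Drd2* lay above *Pdyn* in 14 of 20, *Tac1* above *Drd1* in 11, *Drd1* above *Rgs9* in 13 and *Rgs9* above *Adora2a* in 10, so the order of these 4 pairs rests on the medians alone. Exon length is the union over all annotated transcripts, which understates the level of a gene whose long isoforms are little used.

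The spread was far larger than read counting gives. The coefficient of variation (SD over mean of CPM, n = 20) was 67.2% for *Adora2a*, 51.3% for *Drd1*, 49.7% for *Drd2*, 47.9% for *Rgs9*, 46.8% for *Penk*, 45.4% for *Ppp1r1b* and 39.9% for *Pde10a*. It was 27.9% for *Pdyn* and 26.9% for *Tac1*. Counting alone would give 1.68% to 5.29% at these read numbers. The SD of log2(CPM + 0.5), the scale used from here on, was 0.999 for *Adora2a* and 0.37 for *Tac1*, and each of the 9 genes varied more than at least 97.4% of the 15168 genes with a mean of at least 1 CPM. Within genotype the SD of *Drd1* was 0.74 in C57BL/6 and 0.69 in *Winnie* brains, and that of *Tac1* was 0.43 and 0.31.

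The 9 genes rose and fell together over the 20 brains. All 36 pairs were positively correlated, with Pearson's r from 0.87 to 0.98 and a median of 0.96. Spearman's rho ranged from 0.84 to 0.98. Each of the 36 r passed a two-sided permutation test with 100000 resamples, with a largest Benjamini-Hochberg adjusted p of 2.0e-05, and the largest adjusted p of rho was 4.0e-05. The smallest p these resamples can give is 1e-05.

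Pairs that mark 1 neuron class and pairs that cross classes had much the same r. *Drd1*, a direct pathway gene, had r = 0.90 with *Tac1* and 0.93 with *Pdyn*, and r = 0.95 with *Drd2*, its indirect pathway counterpart. *Drd2* had r = 0.96 with *Adora2a* and 0.97 with *Penk*. Pairs of a direct with an indirect pathway gene ran from r = 0.89 (*Tac1* with *Adora2a*) to 0.97 (*Drd1* with *Adora2a*). The median over the 27 pairs across groups was 0.96, and these include pairs of a shared signalling gene with a gene of either class. It was 0.93 for the 3 pairs of the direct pathway, 0.96 for those of the indirect pathway and 0.98 for those of the shared signalling genes. The highest pair was *Ppp1r1b* with *Rgs9* (r = 0.98, rho = 0.96) and the lowest *Tac1* with *Pde10a* (r = 0.87, rho = 0.84). No test compared these r with each other.

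The correlations were present within each genotype, with a median r of 0.97 in C57BL/6 (range 0.90 to 0.99) and 0.96 in *Winnie* brains (0.84 to 0.99). Without the 2 brains farthest from the median of the first gene of a pair, r ranged from 0.82 to 0.98. The brains did not spread evenly. The mean of the 9 centred log2 values ran from -0.86 in *Winnie* replicate 8 to 1.01 in C57BL/6 replicate 5, and its widest gap, of 0.43, separated 12 brains at or below -0.09 from 8 at or above 0.34. Each side held equal numbers of both genotypes, 6 and 6 below and 4 and 4 above. Within the 12 lower brains the median r was 0.78 (0.21 to 0.94) and within the 8 upper brains 0.89 (0.52 to 0.98), so all 36 pairs kept a positive r on each side of the gap. The lowest of these, 0.21, was again *Tac1* with *Pde10a*.

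**Figure D2:**
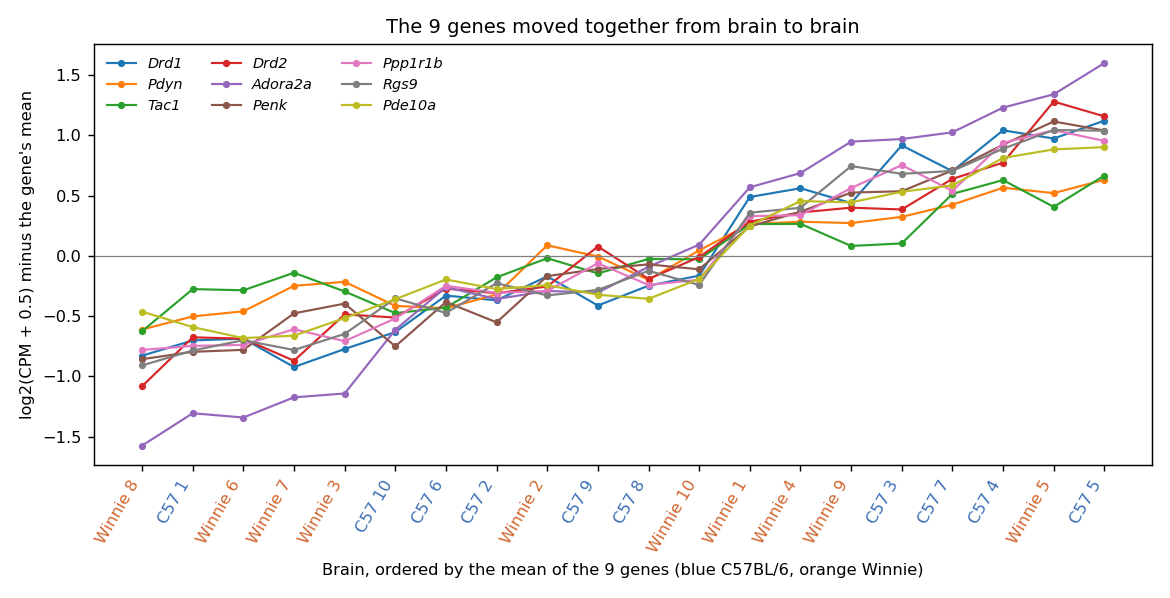
Each line is 1 of the 9 genes, as log2(CPM + 0.5) minus the gene's mean, over the 20 brains ordered by the mean of the 9 genes (C57BL/6 names in blue, Winnie in orange). All 9 lines climbed from left to right with both genotypes mixed along the axis, and the step between Winnie 10 and Winnie 1 is the gap of 0.43.

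The genes differed in how steeply they followed the shared level. The mean log2 level of 22 other striatum-enriched genes, none of them a member, was taken as an outside measure of that level, a choice made after the data were seen. Per log2 unit of it, with genotype in the fit, *Adora2a* rose by 2.42 ± 0.12 (SE), *Drd1* by 1.72 ± 0.08, *Rgs9* by 1.62 ± 0.07, *Drd2* by 1.59 ± 0.08, *Penk* by 1.58 ± 0.07, *Ppp1r1b* by 1.54 ± 0.04 and *Pde10a* by 1.33 ± 0.06. *Pdyn* rose by 0.95 ± 0.07 and *Tac1* by 0.83 ± 0.09. The outside measure and genotype together left a residual SD of 0.08 for *Ppp1r1b* to 0.21 for *Adora2a*, and the measure accounted for 82.2% of the variance within genotype of *Tac1*, 92.6% of that of *Pdyn* and 95.8% to 98.6% for the other 7. Of 5 ratios between genes that were computed, each spanned fewer fold than the more variable of its genes. *Drd2* over *Drd1* in CPM ran from 0.70 to 1.44 with a median of 1.04, while each of the receptors spanned more than 4-fold. *Tac1* over *Pdyn* ran from 0.80 to 1.10. *Penk* over *Pdyn* ran from 4.44 to 8.37, *Penk* over *Tac1* from 4.17 to 9.70, nearly as wide as *Tac1* itself, and *Adora2a* over *Drd1* from 0.43 to 1.08.

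With genotype and that outside level removed, most of the covariation was gone. The 36 residual r had a median of 0.07 and ran from -0.42 to 0.69, with 22 of them positive. The highest r was between the peptide precursors of the direct pathway, *Pdyn* and *Tac1*, with r = 0.69 and rho = 0.60. It was the only 1 of the 36 with an adjusted p under 0.05 (permutation test, p = 0.00082, adjusted p = 0.030, n = 20). Its rho did not pass (adjusted p = 0.12). Within genotype this residual r was 0.67 in C57BL/6 and 0.74 in *Winnie* brains, and without the 2 farthest brains it was 0.60. With each brain left out in turn r ran from 0.59 to 0.75, and the adjusted p stayed under 0.05 in 13 of 20 cases. It was lost without C57BL/6 replicates 4, 6 or 7 or *Winnie* replicates 5, 7, 8 or 9, with the highest adjusted p, 0.25 (permutation test), without C57BL/6 replicate 6. The next pairs by r also joined peptide precursors, *Pdyn* with *Penk* (r = 0.54, permutation p = 0.015, adjusted p = 0.27) and *Tac1* with *Penk* (r = 0.48, permutation p = 0.035, adjusted p = 0.33), and did not pass. By rho the highest pair was *Pdyn* with *Penk*, which crosses the classes, at 0.63 (permutation test, adjusted p = 0.12). *Drd1* with *Drd2* had the lowest residual r, -0.42, at an adjusted p of 0.39 (permutation test).

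The genes with the most similar pattern over brains were largely known striatal genes. Likeness was measured as r with the mean of the 9 genes after genotype means were removed, over 20 brains and 15159 other genes with a mean of at least 1 CPM, and it is given as a description. Among the 10 genes with the highest r were *Pde1b*, a calmodulin-dependent phosphodiesterase (0.99), and *Adcy5*, the main adenylyl cyclase of the striatum (0.98). *Serpina9* (0.98), *Cd4* (0.98), *Gpr6*, a receptor of the indirect pathway (0.98), *Gng7*, a G protein gamma subunit (0.97), *Sh3rf2* (0.97), *Rasd2* (0.97) and *Rxrg*, a retinoid receptor (0.97), were also among them. *Cd4*, better known from T cells, ranged 14.5-fold at a mean of 5.34 CPM, and *Serpina9* 10.6-fold at 2.49 CPM. Of the 15159 genes 34 reached an r of 0.9, and the median was -0.11. *Kndc1* was the only gene at or below -0.9 (r = -0.92).

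Of the 22 other striatum-enriched genes, 20 had an r of at least 0.5, with a list median of 0.93. The share of all 15159 genes at 0.5 or more, or at -0.5 or less, was not counted. The counts per list, here and below, are therefore descriptions and cannot be set against all genes. The exceptions were *Foxp2* (0.44) and *Ebf1* (-0.24), transcription factors that many other cells also use. Partners in dopamine and cyclic AMP signalling were divided, with 6 of 21 at 0.5 or more. They included *Ppp1ca*, a catalytic subunit of the phosphatase that DARPP-32 inhibits (0.91), *Prkar2b*, a regulatory subunit of protein kinase A (0.72), and *Gnb5*, the partner of the *Rgs9* protein (0.60). *Drd5*, the other D1-type receptor, went the opposite way (-0.64), and *Prkaca* (0.05) and *Adora1* (-0.05) were near 0. Receptors for the peptides lay between, with *Tacr1*, the substance P receptor, at 0.73, *Oprk1*, the dynorphin receptor, at 0.66, *Oprd1* at 0.45 and *Oprm1* at -0.06. Of 9 genes for peptide processing, 0 reached 0.5, including *Pcsk1* (-0.12) and *Pcsk2* (-0.05).

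Some markers of other cells and regions moved with the 9 genes as well. The striatal interneuron list had 6 of 8 genes at 0.5 or more, with *Lhx8* (0.93) and *Chat* (0.85) of cholinergic neurons the highest. *Npy* (0.57) and *Sst* (0.54) were the lowest of these 6, while *Nos1* (-0.19) and *Pvalb* (-0.29) were below 0. The summed level of the list was 390.1 to 447.2 CPM in C57BL/6 and 386.4 to 461.5 CPM in *Winnie* brains. The hypothalamic peptide list had 5 of 7, with *Oxt* at 0.76 and *Trh* at 0.72, and a summed level of 37.5 to 76.2 CPM in C57BL/6 and 16.05 to 97.5 CPM in *Winnie* brains. *Oxt* had 0 reads in at least 1 brain. In the opposite direction, all 5 tested genes of midbrain dopamine neurons had an r of -0.5 or less, from -0.68 for *Slc18a2* and *Th* to -0.76 for *Slc6a3*, the dopamine transporter. Their summed level was 23.3 to 104.6 CPM in C57BL/6 and 26.5 to 117.1 CPM in *Winnie* brains. For the hippocampus 6 of 7 genes were at -0.5 or less (*Dsp* -0.85, *Fibcd1* -0.77, *Prox1* -0.72), while *Wfs1* was at 0.70, with a summed level of 480.7 to 596.4 CPM in C57BL/6 and 518.0 to 631.3 CPM in *Winnie* brains. For the thalamus 2 of 8 genes were at -0.5 or less, among them *Slc17a6* (-0.62), with a summed level of 366.5 to 546.7 CPM in C57BL/6 and 451.1 to 697.4 CPM in *Winnie* brains.

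The cortex list had 0 of 10 genes at 0.5 or more and 1, *Neurod6*, at -0.5 or less. Of the immediate early genes 0 of 7 lay beyond either limit. Their r ran from 0.17 to 0.42 with a list median of 0.30, beside a median of -0.11 over the 15159 other genes. In glia and vessels 1 of 9 genes, *Cx3cr1*, reached 0.5, and of 6 general neuronal genes *Gad2* and *Slc32a1* did. In the cerebellum 1 of 8, *Barhl1*, was at -0.5 or less, and of 5 olfactory bulb genes *Sp8* and *Eomes* were at 0.5 or more. The part of these cells and regions in the variation of the 9 genes was not tested.

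**Figure D3:**
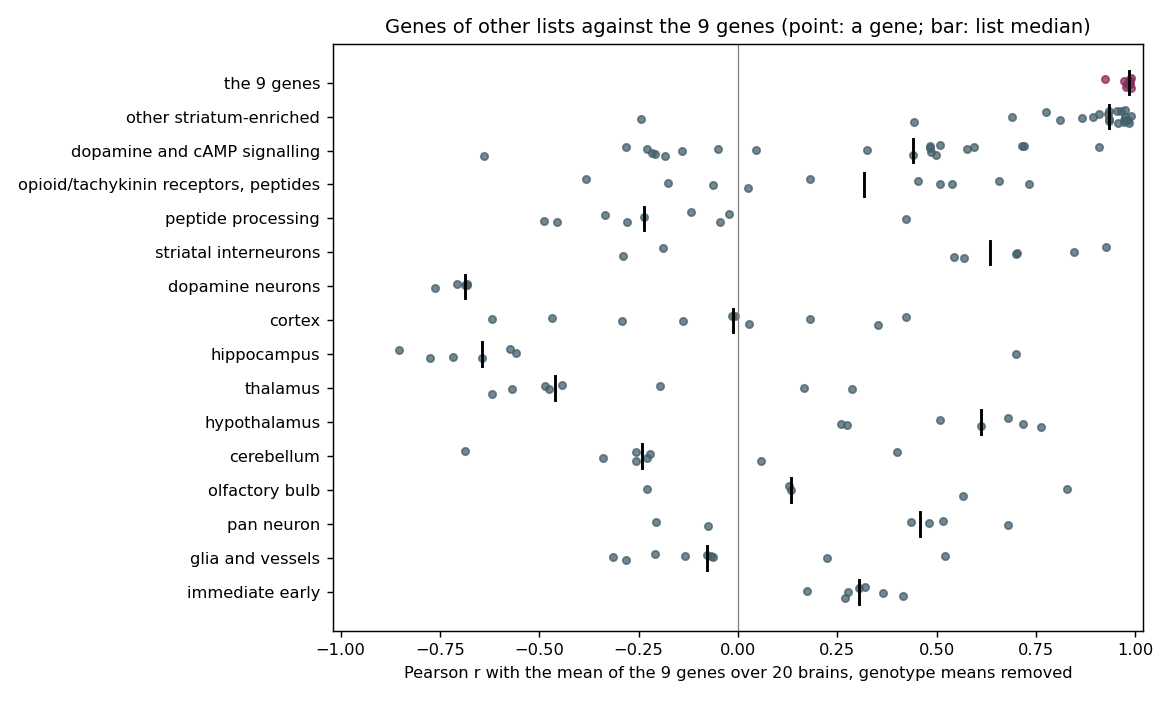
Pearson r of single genes with the mean of the 9 genes over 20 brains, genotype means removed, by gene list; points are genes and bars are list medians. Other striatum-enriched genes had a median of 0.93, hippocampal genes -0.65 and dopamine neuron genes -0.69, while cortical genes had a median of -0.01.

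For *Drd1* alone, 10 such relations were tested over the 20 brains, chosen after their values were seen. The likeness by which the genes among them were known is r with a mean that includes *Drd1* itself. The p given here and below for relations of *Drd1* do not allow for that choice, also when adjusted. For genes picked for a high or low likeness they are therefore no independent test, and r and rho are descriptions. The *Drd1* levels fall on either side of the gap described above, so r is also given within the 12 lower and the 8 upper brains. *Drd1* correlated with *Adcy5* at r = 0.97 and rho = 0.95 (permutation test, adjusted p = 3.33e-05 for each), with 0.84 in the lower and 0.82 in the upper brains and 0.96 without the 2 farthest brains. *Lhx8* had r = 0.90 and rho = 0.89 (permutation test, adjusted p = 3.33e-05 for each), with 0.73 in the lower and 0.37 in the upper brains.

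With *Slc6a3* the relation of *Drd1* was negative, at r = -0.74 (permutation test, adjusted p = 0.00027) and rho = -0.67 (adjusted p = 0.0032), with -0.85 in C57BL/6 and -0.71 in *Winnie* brains and -0.75 without the 2 farthest brains. It rested on the difference between the lower and the upper brains, as r was -0.06 within the former and -0.18 within the latter. With *Slc17a6* it had r = -0.65 and rho = -0.50 (permutation test, adjusted p = 0.0022 and 0.045), and this too did not hold in the lower brains (0.30, against -0.58 in the upper). With *Fibcd1* it had r = -0.76 and rho = -0.78 (permutation test, adjusted p = 0.00028 and 0.00032), with -0.53 in the lower and -0.56 in the upper brains. With *Slc17a7*, the vesicular glutamate transporter of cortex, r was 0.04 (permutation test, adjusted p = 0.87), with 0.40 in C57BL/6 and -0.55 in *Winnie* brains and with -0.27 in the lower and 0.50 in the upper brains. With *Egr1*, an activity-dependent gene, r was 0.40 (permutation test, adjusted p = 0.12), with -0.01 in the lower and 0.33 in the upper brains. Within genotypes it was 0.24 in C57BL/6 and 0.68 in *Winnie* brains (permutation test, adjusted p over the 20 within-genotype relations = 0.52 and 0.051).

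No relation of *Drd1* with depth was detected (r = 0.22 with log2 total reads, rho = -0.0015, permutation test, adjusted p = 0.40 and 0.998), with r = -0.34 in the lower and 0.28 in the upper brains. The library number had r = -0.37 and rho = -0.38 over all 20 (adjusted p = 0.13 for each), with r = -0.70 within C57BL/6, where the adjusted p over the 20 within-genotype relations was 0.050, and -0.25 within *Winnie* brains (adjusted p = 0.52, permutation test). It was -0.23 in the 12 lower brains and -0.81 in the 8 upper ones, a split not tested. In C57BL/6 the libraries numbered 1, 2, 3 and 7 were the 4 with the highest *Drd1*, and 1 to 3 are replicates 5, 4 and 3. What this number stands for is not given in the labels, and its part in the variation was not tested further.

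*Ido1*, the enzyme that opens the kynurenine pathway of tryptophan and a gene of interest in this study, followed the same pattern and is named here after its values were seen. It ranked 16th of the 15159 genes in likeness to the 9 genes (r = 0.95), which include *Drd1*, and the adjusted p below does not allow for that choice. With *Drd1* it had r = 0.92 and rho = 0.93 (permutation test, adjusted p = 3.33e-05 for each), with 0.93 in C57BL/6, 0.97 in *Winnie* brains and 0.90 without the 2 farthest brains. Within the 12 lower brains r was 0.77 and within the 8 upper ones 0.92. *Ido1* ranged from 0.15 CPM, or 3 reads, in *Winnie* replicate 8 to 2.67 CPM, or 52 reads, in *Winnie* replicate 5. These are the brains with the lowest and highest *Drd2*.

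**Figure D4:**
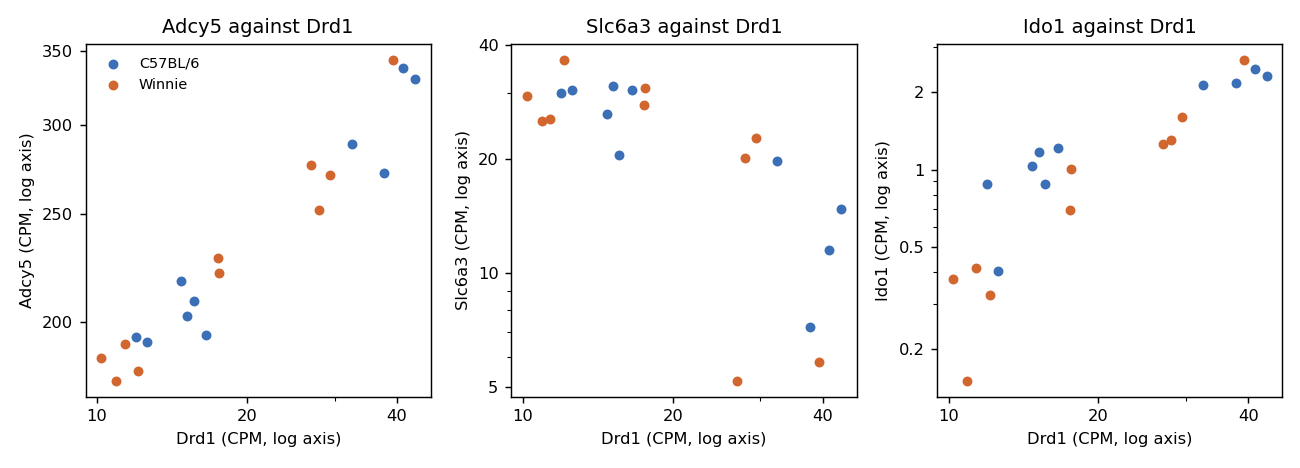
CPM of Adcy5, Slc6a3 and Ido1 against CPM of Drd1 on log axes, 1 point per brain (C57BL/6 blue, Winnie orange). Adcy5 and Ido1 rose with Drd1 (r = 0.97 and 0.92) with both genotypes along the same course, and Slc6a3 went the opposite way (r = -0.74).

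Between genotypes, none of the 9 genes was called different in *Winnie* brains. The point estimates were all on the lower side, from a log2 fold change of -0.38 for *Adora2a* to -0.01 for *Pdyn*, with a median of -0.21, beside a median of 0.00 over all 17211 genes. As the genes follow each other from brain to brain, their common sign is not independent evidence of a direction. With limma on log2(CPM + 0.5), 0 of 9 genes passed the study's threshold, a false discovery rate (FDR) under 0.001 together with a change of 1.5-fold or more either way, as did 0% of all genes. At an FDR under 0.05, 0 of 9 passed, beside 434 of all 17211 genes, or 2.52%. At an unadjusted p under 0.05 the count was 0 of 9 with limma, with edgeR and with DESeq2, beside 3030 of all genes with limma.

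The intervals were wide because the brains of a genotype differed so much. For *Drd1* the mean was 24.2 ± 12.9 CPM (SD, n = 10) in C57BL/6 and 20.3 ± 9.98 CPM in *Winnie* brains, with a log2 fold change of -0.22 ± 0.32 (SE) and a 95% interval from -0.88 to 0.45 (limma, FDR = 0.78). As a ratio of *Winnie* to C57BL/6, this 95% interval ran from 0.54 to 1.37. For *Adora2a* the means were 20.7 ± 13.6 and 16.5 ± 11.6 CPM, with a log2 fold change of -0.38 ± 0.45 and an interval from -1.32 to 0.56 (limma, FDR = 0.72). For *Drd2* they were 23.5 ± 10.7 and 20.9 ± 11.8 CPM, with an interval from -0.83 to 0.41 (limma, FDR = 0.77). *Penk* had an interval from -0.72 to 0.51, *Ppp1r1b* from -0.80 to 0.38, *Rgs9* from -0.84 to 0.42 and *Pde10a* from -0.66 to 0.37. The steadier peptide genes had narrower ones, from -0.39 to 0.36 for *Pdyn* (limma, FDR = 0.98) and from -0.42 to 0.27 for *Tac1* (limma, FDR = 0.86). A two-sided permutation test of each gene gave p from 0.41 for *Adora2a* to 0.94 for *Pdyn*, not adjusted. In 6 of 10 *Winnie* brains *Drd1*, *Pdyn* and *Tac1* were above the C57BL/6 median, and in 6 of 10 *Penk*, *Ppp1r1b* and *Rgs9* were below it.

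With the level of the 22 other striatum-enriched genes as a covariate, the comparison became far tighter. This fit, added after the data were seen, asks whether a gene differed between genotypes beyond what those 22 genes did, whose mean differed by -0.13. Again 0 of 9 passed an FDR under 0.05, beside 2.13% of all genes. *Ppp1r1b* had a log2 fold change of -0.01 with a 95% interval from -0.08 to 0.07 (limma, FDR = 0.96), *Drd1* 0.01 (-0.11 to 0.13, FDR = 0.95), *Drd2* -0.0016 (-0.13 to 0.12, FDR = 0.995), *Rgs9* 0.0034 (-0.11 to 0.11) and *Pde10a* 0.03 (-0.06 to 0.12). *Adora2a* was at -0.06 (-0.23 to 0.12) and *Tac1* at 0.03 (-0.10 to 0.17). The opioid precursors were the farthest from 0, *Pdyn* at 0.11 (0.01 to 0.22, limma, unadjusted p = 0.040, FDR = 0.26) and *Penk* at 0.10 (-0.00026 to 0.21, unadjusted p = 0.051, FDR = 0.29), and neither passed. A change of 1.5-fold relative to the other striatal genes lay outside the interval of each of the 9. The median SE fell from 0.29 to 0.05. For *Ido1* the log2 fold change was -0.48 (-1.07 to 0.11, limma, FDR = 0.40) and with the covariate -0.28 (-0.49 to -0.06, unadjusted p = 0.014, FDR = 0.16).

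**Figure D5:**
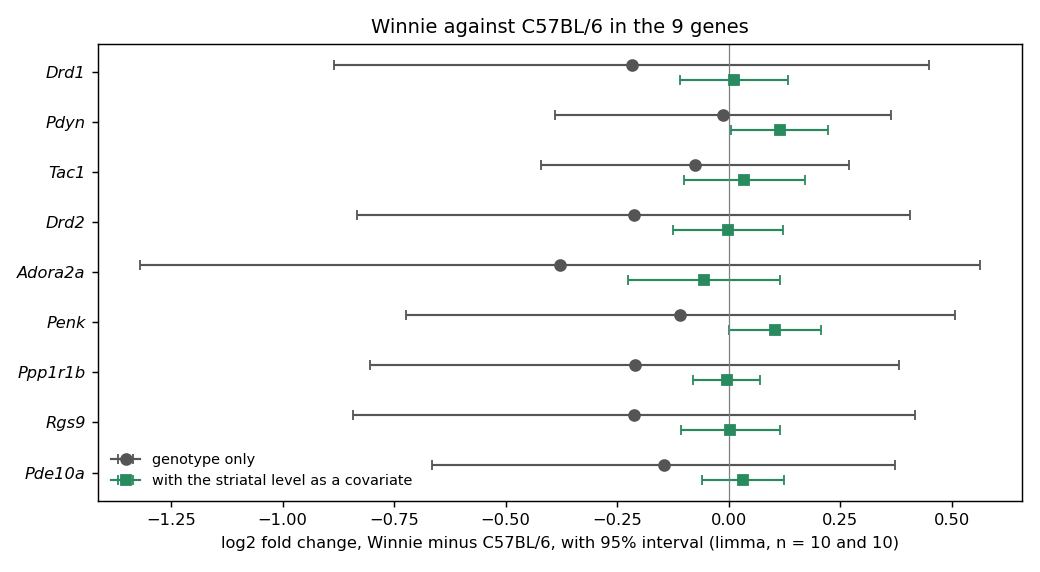
log2 fold change of Winnie against C57BL/6 with its 95% interval for the 9 genes, from limma on 10 and 10 brains; grey circles are the fit with genotype only and green squares the fit with the level of 22 other striatum-enriched genes as a covariate. Every grey interval spans 0, and the green ones are narrower, with only that of Pdyn (0.01 to 0.22) lying above 0, at an FDR of 0.26.

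Other genes of the pathway and of neighbouring cells were compared in the same fit, from lists drawn up with earlier results of these data known. Of 142 tested genes in 15 lists, 0 were higher and 1 was lower in *Winnie* brains at an FDR under 0.05, or 0.70%, beside 2.52% of all genes. That gene was *Cldn5*, a tight junction protein of brain endothelium (log2 fold change -0.47 ± 0.08, limma, FDR = 0.0033). Of the 22 other striatum-enriched genes 0 passed, with a median of -0.12. The smallest p belonged to *Foxp1* (-0.13, FDR = 0.41) and *Rarb* (-0.26, FDR = 0.57). Of 21 dopamine and cyclic AMP signalling genes 0 passed, with *Ppp3ca*, a calcineurin subunit, at -0.11 (FDR = 0.18) and *Prkaca* at -0.07 (FDR = 0.27).

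Of the 10 peptide receptors and related peptides 0 passed. *Oprm1*, the mu opioid receptor, had a log2 fold change of 0.39 ± 0.13 (limma, FDR = 0.095) and *Oprl1*, the nociceptin receptor, 0.15 ± 0.06 (FDR = 0.17). *Oprm1* ranged from 2.34 to 7.81 CPM and showed little likeness to the 9 genes. Of 9 processing genes 0 passed, with *Scg2* at 0.07 and *Pcsk1n* at -0.05. Of 8 interneuron genes 0 passed, with *Pvalb* at -0.15 (FDR = 0.15) and *Nos1* at 0.05. The 5 tested dopamine neuron genes gave 0 calls, with *Ddc* at 0.18 and *En1* at -0.14 (limma, FDR = 0.73 and 0.90).

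In the region lists other than striatum 0 genes passed. The smallest p in the hippocampus belonged to *Prox1* (0.17, FDR = 0.10) and *Dsp* (0.45, FDR = 0.11), in the cortex to *Lamp5* (-0.27, FDR = 0.12) and *Rasgrf2* (0.08, FDR = 0.26), and in the thalamus to *Prkcd* (0.22, FDR = 0.39) and *Rora* (0.10, FDR = 0.47). In the hypothalamus it belonged to *Crh* (-0.21, FDR = 0.20) and *Trh* (0.41, FDR = 0.33). *Car8* (-0.30, FDR = 0.28) and *Gabra6* (-0.75, FDR = 0.35) had the smallest p in the cerebellum list, and *Cdhr1* (0.11, FDR = 0.53) and *Calb2* (0.12, FDR = 0.54) in the olfactory bulb list. Of the general neuronal genes *Gad2* was at 0.12 (FDR = 0.29) and *Rbfox3* at -0.10 (FDR = 0.32), and of the immediate early genes *Npas4* was at -0.52 (FDR = 0.21) and *Arc* at -0.20 (FDR = 0.84). *Drd4*, *Pitx3*, *Foxa2* and *Agrp*, also on these lists, were not analysed here.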

How the data were processed

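The authors made polyA libraries from mouse brain RNA, 20 samples here, sequenced them as paired-end reads on an MGISEQ-2000RS and processed them with RNAsik 1.5.4 on GRCm38. FeatureCounts gave reads per gene, and the authors deposited CPM made with Degust, in which each sample's listed genes sum to a common total. The aligner, strandedness and low-count filter are not given in the sources used here. The study's brain comparison names 8 C57BL/6 and 6 *Winnie* mice, and all 20 labelled samples were used here. The titles number the samples within each group without naming a mouse, and each sample was taken to be a separate mouse. One read's CPM step gave whole reads for 100.0% of values in every sample (within 0.1 read), 16540303 to 23923769 per sample. Floors cover counting error only.

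Expression was compared with limma 3.58.1 (R 4.3.3) on log2(CPM + 0.5) with trend and robust variance. FDR is the Benjamini-Hochberg adjusted p over all 17211 genes, and fold changes on this scale understate those of low genes. Correlations used numpy 2.4.6 and scipy 1.17.1 (Python 3.11.15) with two-sided permutation tests of 100000 resamples, adjusted over the 36 pairs. Exon lengths and coding windows come from GENCODE M21, promoters from RefSeq. Limma was also tested on simulated data with 200 of 17211 genes changed. At an FDR under 0.05 it found 86.5% of genes changed 1.5-fold and 100.0% of those changed 2.0-fold. These shares cannot be carried over to the striatal projection neuron genes, which varied more between brains than most genes. The median SE of their log2 fold changes was 0.29, beside 0.065 over all genes. The 95% interval of *Drd1*, from -0.88 to 0.45, includes a 1.5-fold decrease.

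The 9 genes, the lists, the tests and the alternatives were chosen with earlier results of these data known. Named genes are the 9, the highest and lowest of the 36 pairs and 6 fixed pairs, the 10 genes most like the 9, and from each list those at an FDR under 0.05 (at most 4) or else the 2 with the smallest p; list genes with high or low likeness, *Ido1* and *Kndc1* were added after their values were seen. Of the 10 most like the 9, 1 is not reported here. Alternatives were edgeR 4.0.16 and DESeq2 1.42.0 on recovered reads, each sample left out, a replicate block, labelled sex or *Ddx3y* as a covariate, median-ratio and quantile scaling, genes of at least 1 CPM on average, and a pseudocount of 0.1 or 1. The striatal covariate, the correlations with it removed, the split at the widest gap and the relations of *Drd1* were added after the data were seen.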

Additional observations from a re-analysis of the deposited data

Results flagged for a closer look

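In the *Winnie* group 1 *Drd2* value stood apart from the others. *Winnie* replicate 5 had 49.3 CPM, and the next *Winnie* brain had 26.6 CPM, a gap of 0.567 of the group's range, above Dixon's 95% critical value for 10 samples. This was examined on CPM, not on the log2 scale used elsewhere. On that scale, minus the gene's mean, the brain was at 1.28, the next at 0.40 and the lowest at -1.08. The gap was then a smaller part of the range, so the flag holds for CPM only. The same brain was also the highest of all for *Penk*, *Ppp1r1b* and *Rgs9*, and the highest C57BL/6 brain for *Drd2* had 45.2 CPM. Of 18 such groups examined, 9 genes in 2 genotypes, this was the only one past the critical value, and chance passes about 1 in 20. Without this brain the log2 fold change of *Drd2* was -0.37 (limma, FDR = 0.50), beside -0.21 with it.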

How the results depend on the processing

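In every alternative, 0 of the 9 genes passed the study's threshold or an FDR under 0.05, and the lowest FDR of any member was 0.26 with the striatal covariate and 0.50 in the other settings. The median log2 fold change of the 9 genes, -0.21, ran from -0.21 to -0.16 in the other settings that kept all samples and from -0.34 to -0.10 with 1 sample left out, and was 0.01 with the striatal covariate. That covariate turned 6 genes to the positive side, *Drd1* to 0.0118, *Pdyn* to 0.114, *Tac1* to 0.0348, *Penk* to 0.103, *Rgs9* to 0.00335 and *Pde10a* to 0.0327. The fit removes the part of each gene that follows the 22 other striatal genes, whose mean differed by -0.13. Each gene has its own slope on that mean, from 0.83 for *Tac1* to 2.42 for *Adora2a*. *Pdyn*, near 0 throughout, was also positive with *Ddx3y* as a covariate (0.00405). With 1 sample left out it ran from -0.0714 to 0.0564, positive without C57BL/6 replicates 3, 4, 5 or 7 or without *Winnie* replicates 3, 6, 7 or 8, and *Penk* ran from -0.238 to 0.00095, positive without C57BL/6 replicate 5. Over all genes, calls at an FDR under 0.05 were 434 with limma, 517 with edgeR on recovered reads, 968 with DESeq2 and, at the study's threshold, 0, 1 and 10. With 1 sample left out the limma count ran from 169 without C57BL/6 replicate 5 to 694 without C57BL/6 replicate 10, and it was 216 to 270 without C57BL/6 replicates 3, 8 or 9 or *Winnie* replicates 2, 3, 7 or 8.

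The median pairwise correlation, 0.96, ran from 0.94 to 0.97 over the other scalings, pseudocounts, genotypes and rank correlation and from 0.95 to 0.96 with 1 sample left out, and was 0.78 within the 12 brains below the widest gap and 0.89 within the 8 above it. The 7 named pairs kept a positive r past an unadjusted permutation p of 0.05 in all 196 combinations run. The split at the widest gap was not among these combinations and was not tested. Within the 12 lower brains *Tac1* with *Pde10a*, 1 of the named pairs, had an r of only 0.21.

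Replicate numbers do not pair the samples. Deviations of same-numbered samples correlated at -0.34 to 0.17, and 0 of 10 samples correlated best with their own number. With a replicate block, 0 of 9 genes passed either threshold, the median stayed at -0.21, and calls over all genes at an FDR under 0.05 numbered 227. At 93 reads or more per gene and brain, depth did not limit these comparisons. The spread between brains did.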

Other observations

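The genes that moved most strongly against the 9 striatal genes were examined as well, chosen after their values were seen. *Kndc1* had an r of -0.92 with the mean of the 9 genes, *Tanc1* -0.89, *Cabp7* -0.88, *Gjb6*, an astrocyte connexin, -0.88 and *Tenm2* -0.87. Each of the 5 varied little, between 1.53-fold and 1.64-fold from the lowest to the highest brain. Of these, *Kndc1* (log2 fold change 0.22, limma, FDR = 0.023) and *Gjb6* (0.22, FDR = 0.038) were higher in *Winnie* brains at an FDR under 0.05, and with the striatal covariate they were at 0.18 (FDR = 0.0031) and 0.18 (FDR = 0.014). *Tenm2* (0.17, FDR = 0.11), *Tanc1* (0.16, FDR = 0.14) and *Cabp7* (0.02, FDR = 0.94) passed in neither fit. Of all genes, 2.52% passed without and 2.13% with the covariate. *Dsp*, of dentate granule cells, had an r of -0.85 and passed with the covariate alone (0.35, FDR = 0.018, against 0.45 and 0.11 without it). *Dock9*, with an r of -0.84, was at 0.23 (FDR = 0.028) and 0.19 with the covariate (FDR = 0.0074). *Zfpm2*, the next in this order, was at 0.06 (FDR = 0.73) and passed in neither fit.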
